A study of Mus musculus with 24 samples.

Results

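Lpxn, Pan3, Wnk1, Itm2b, Ube4a, Prom1 and Mgl2 are 7 mouse genes that stood out when MLLT10 was knocked out in leukaemia cells. They were chosen by their measured RNA counts, with results of these data in view: they were selected on a difference from the non-targeting control shared by both MLLT10 guides. They are 7 of the 43629 genes in the table of counts, and each of them is among the 10578 genes with enough counts to test. The values that chose them are therefore given here as a description. The question tested is whether each gene also differs between the MLLT10 knockout and the knockouts of 3 related genes, DOT1L, MLLT1 and MLLT6.

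The cells are a mouse MLL-AF9 leukaemia expressing Cas9, so that every group, the control included, shares the fusion and the nuclease. Guide RNAs were delivered by lentivirus (MOI 0.3). Each group was selected for 72 h with 2 ug/ml puromycin from 48 h after transduction, and was harvested on day 9. There are 8 groups of 3 libraries: the non-targeting control (NT), the DOT1L knockout, and guide 1 and guide 2 for each of MLLT10, MLLT1 and MLLT6. The labels give a single guide for NT and for DOT1L, so an effect of the guide and an effect of the gene cannot be told apart there. They do not say whether replicates were separate infections, so the p-values cover the spread among libraries only, which may be technical. In such pools, fewer cells that express a gene and less RNA per cell cannot be told apart.

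DOT1L methylates lysine 79 of histone H3 on transcribed genes. MLLT10 (AF10), MLLT1 (ENL) and MLLT6 (AF17) are partner proteins found with it, and MLLT10 also reads the unmodified tail around lysine 27 of histone H3. In leukaemia with MLL fusions this machinery keeps the fusion's target genes active, and its loss is known to let the cells mature along the myeloid path. The genes here belong to no single pathway: they encode a kinase, an adhesion adaptor, an RNA-decay subunit, a ubiquitin ligase and 3 membrane proteins.

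Library totals ranged from 2403044 to 7415397 counts. Levels are given in CPM, counts scaled to 1000000 per library after TMM normalization. Mllt10 mRNA itself was 7.98 to 12.1 CPM in the 6 MLLT10 libraries and 14.7 to 19.1 CPM in NT, and it was lower than in the 3 other knockouts as a group (log2 difference -0.72 ± 0.15 SE, adjusted p = 0.00421, edgeR's quasi-likelihood test). Against NT alone the log2 difference was -0.76 ± 0.21 (adjusted p = 0.139), and against MLLT6 it was -0.51 ± 0.18 (adjusted p = 0.247). A message that survives cutting by Cas9 does not measure the protein. All 9 of the myeloid leukaemia markers listed were detected in every group, and all 4 B cell markers were at 0 in every library. MLLT1 guide 1 replicate 1 and MLLT6 guide 1 replicate 3 stood apart in earlier results of these data, and what changes without them is given beside the gene concerned.

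**Figure D1:**
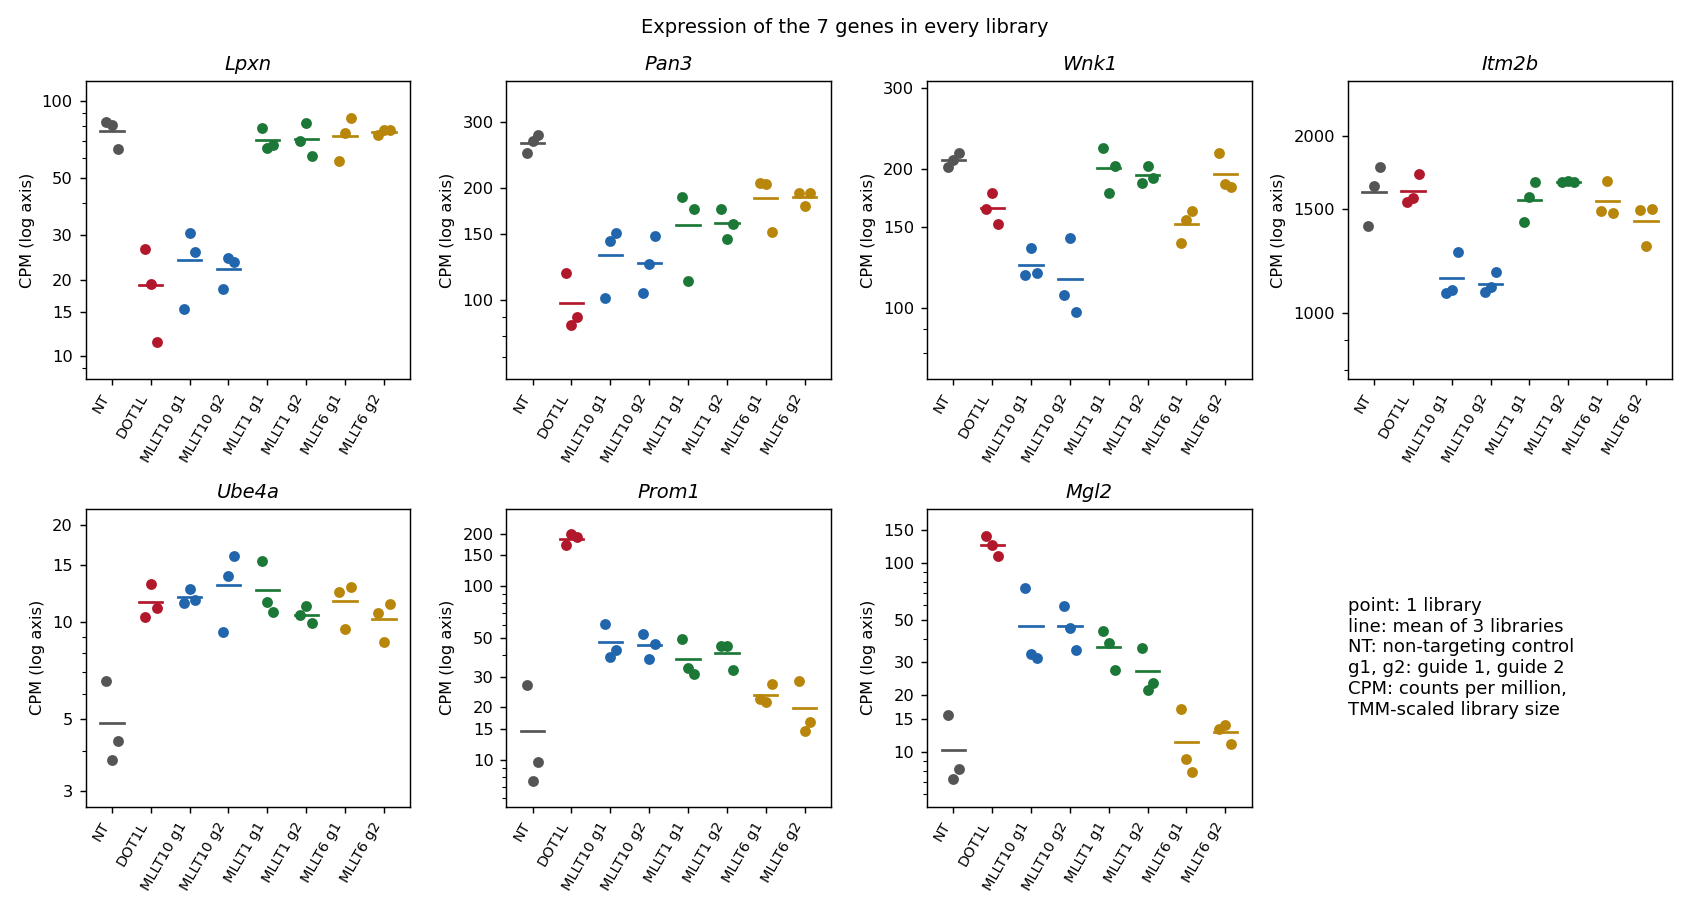
Level of each of the 7 genes in CPM (log axis) in every library, by group, with each point a library and each line the mean of 3 libraries. Itm2b is lower in the 6 MLLT10 libraries than in all 18 others, while Prom1 and Mgl2 are highest in DOT1L and Ube4a is lowest in NT.

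The regulatory sequences shown here are those upstream of 4 of the genes. Wnk1 and Itm2b are shown because only they, among the 7, differed from each of the 3 other knockouts, Lpxn because it shares its upstream bases with a neighbour that did not follow it in the comparisons with NT, and Mgl2 as 1 of the pair that followed the DOT1L knockout. Each runs 5′ to 3′ on the gene's own strand, comes from RefSeq (GRCm38.p6) and ends where the GENCODE M21 gene begins. Capitals mark matches on either strand. The search covered the GC box GGGCGG, bound by SP proteins, and the box known as CCAAT, bound by NF-Y. It covered the start-site element TATAAA and the ETS-family core AGGAAGT. It also covered the E-box CACGTG, the C/EBP half-sites TTGCNNAA and the HOX-type element TGATTNAT.
Wnk1, chr6:120038673-120038905, minus strand: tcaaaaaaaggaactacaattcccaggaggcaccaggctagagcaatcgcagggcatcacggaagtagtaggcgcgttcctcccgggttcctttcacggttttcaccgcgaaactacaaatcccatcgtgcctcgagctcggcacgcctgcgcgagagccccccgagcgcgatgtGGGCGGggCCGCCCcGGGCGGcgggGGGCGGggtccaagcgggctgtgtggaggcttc
Itm2b, chr14:73385290-73385539, minus strand: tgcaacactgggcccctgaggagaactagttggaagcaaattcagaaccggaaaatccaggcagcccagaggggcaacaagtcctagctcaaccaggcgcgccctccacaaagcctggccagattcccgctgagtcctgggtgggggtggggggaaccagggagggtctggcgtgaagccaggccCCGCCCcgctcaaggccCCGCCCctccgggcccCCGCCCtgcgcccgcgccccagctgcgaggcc
Lpxn, chr19:12796127-12796192, plus strand: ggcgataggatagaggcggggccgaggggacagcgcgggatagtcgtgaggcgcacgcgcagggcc
Mgl2, chr11:70130107-70130328, plus strand: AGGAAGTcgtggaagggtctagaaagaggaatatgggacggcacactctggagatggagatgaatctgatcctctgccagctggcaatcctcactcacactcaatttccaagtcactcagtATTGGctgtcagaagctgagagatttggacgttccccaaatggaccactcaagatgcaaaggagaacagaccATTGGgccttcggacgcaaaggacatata

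Upstream of Wnk1 there are 4 GC boxes and upstream of Itm2b there are 3, a motif held by 32.9% of the 27025 promoters of 250 bases in the RefSeq table. GC boxes are not particular to these genes: Ube4a also has 4 in its 250 bases, and the first RefSeq promoter of Prom1 has 1. Pan3 and Lpxn have 0. Mgl2 has no GC box in this window. It has 2 CCAAT matches, a motif in 34.5% of promoters, and 1 AGGAAGT, a motif in 7.80%. The 250 bases before the RefSeq start hold 26 CpG pairs for Wnk1, 23 for Pan3, 17 for Lpxn, 16 for Ube4a, 14 for Itm2b, 9 for Prom1 and 5 for Mgl2, against a median of 6 over all promoters. The 5 genes with 14 or more are the 4 that were lower in the MLLT10 knockout and Ube4a, which was higher, while Prom1 and Mgl2 have the fewest. The cutoff of 14 is the count of Itm2b itself, and the share of all promoters that reach it was not taken. A link between CpG pairs and direction was not tested. The 9 of Prom1 is for its first RefSeq promoter, and its other RefSeq promoter has 3 CpG pairs, 1 AGGAAGT and no GC box. A match is a description of these letters and not of a bound factor.

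Against NT, the contrast that chose them, all 7 genes passed the threshold of an adjusted p of 0.05 in the MLLT10 knockout, where 0.473% of all genes tested did. The choice favoured these counts, with both guides and with each alone, so they are a description and no test. Lpxn, Pan3, Wnk1 and Itm2b were lower, and Ube4a, Prom1 and Mgl2 were higher, where 0.236% of genes passed in each direction. Without NT replicate 2 or NT replicate 3, Itm2b, Ube4a and Prom1 no longer passed (adjusted p from 0.0949 to 0.316), and the calls over all genes went from 50 to 15 in each case. The same 3 genes did not pass with only the groups compared (adjusted p = 0.145, 0.0946 and 0.074). Itm2b also no longer passed with no filter (adjusted p = 0.131) and without MLLT10 guide 1 replicate 1 or 2 or guide 2 replicate 1 or 2 (adjusted p from 0.0512 to 0.0582). Taking each guide alone, 6 of the 7 passed with guide 1 and with guide 2, where 0.17% and 0.303% of genes tested did. The exception was Itm2b, which passed with neither guide alone (adjusted p = 0.139 for guide 1 and 0.0653 for guide 2). Ube4a lay just inside the threshold with guide 1 (adjusted p = 0.0442). In all, 16 genes passed with both guides, 12 higher and 4 lower, and 6 of the genes described here are among them. Of those 16 genes, 2 differed in 1 direction from each of the 3 other knockouts, Wnk1 and the chemokine gene Ccl9.

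Between guide 1 and guide 2 of MLLT10, 0 of the 7 genes and 0 of the 10578 tested (0%) passed with edgeR. At an unadjusted p under 0.05 the count was 0 of 7 and 182 of 10578 genes (1.72%), and DESeq2 also called 0 of the 7. The widest 95% interval of the guide difference was that of Mgl2, -0.66 to 0.64 on the log2 scale. The genes were chosen as shared by both guides, so the choice favoured agreement between the guides, which is no test here.

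Wnk1 encodes a serine/threonine kinase that senses chloride and cell volume and signals through STK39 and OXSR1 to cation-chloride cotransporters. Wnk1 lies on chromosome 6 from 119923969 to 120038672 on the minus strand (GRCm38). The pseudogene Gm16199, on the plus strand, and the microRNA gene Mir706, on the minus strand, overlap it. The Wnk1 level was 202, 210 and 216 CPM in NT and 163, 177 and 152 CPM in DOT1L. With MLLT10 knocked out, Wnk1 was 118, 135 and 119 CPM with guide 1 and 107, 142 and 98.0 CPM with guide 2. The 6 MLLT10 libraries were below all those of NT, DOT1L and MLLT1, where the MLLT1 libraries ran from 177 to 222 CPM (median 197).

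In MLLT6, Wnk1 was 139, 155 and 162 CPM with guide 1 and 217, 185 and 183 CPM with guide 2. Overlap with MLLT10 therefore came from single libraries: the highest MLLT10 library, 142 CPM, was above the lowest of MLLT6 guide 1. The 3 MLLT6 guide 1 libraries were also lower than each of the MLLT6 guide 2 libraries. Mllt10 mRNA was lower with that MLLT6 guide too, 8.06 to 14.4 CPM against 16.9 to 19.2 CPM with guide 2 (log2 difference -0.73, adjusted p = 0.417). Its part in the Wnk1 level was not tested.

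Wnk1 was lower in the MLLT10 knockout than in each other knockout. The log2 difference was -0.45 ± 0.12 SE from DOT1L (adjusted p = 0.00754, edgeR), -0.72 ± 0.10 from MLLT1 (adjusted p = 1.1e-04) and -0.52 ± 0.10 from MLLT6 (adjusted p = 0.0096). DOT1L was -0.35 ± 0.14 from NT (adjusted p = 0.082), which passed with only those groups fitted (-0.40, adjusted p = 0.0477) and with library totals alone as the scale (-0.60, adjusted p = 0.00234). The threshold was not passed either by MLLT1 against NT (-0.09, 95% interval -0.34 to 0.17) or by MLLT6 against NT (-0.28, 95% interval -0.53 to -0.03, adjusted p = 0.699). The difference between MLLT10 and DOT1L ended without DOT1L replicate 2 (adjusted p = 0.0579), with no filter on low counts (adjusted p = 0.0734) and with library totals alone as the scale (-0.23, adjusted p = 0.161). The difference from MLLT6 ended when only the MLLT10 and MLLT6 libraries were fitted (adjusted p = 0.0651).

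Of 13 other tested genes of the WNK pathway, 0 passed between the MLLT10 knockout and NT, 4 passed against DOT1L (2 higher, 2 lower), where 23.5% of all genes tested passed, 1 against MLLT1 (2.68% of all genes) and 0 against MLLT6 (0.766%). Stk39, the kinase that WNK1 activates, was higher in the MLLT10 knockout than in MLLT1 (1.06 ± 0.20, adjusted p = 0.0027). Slc12a2, the cotransporter that this branch drives, was higher than in DOT1L (1.097 ± 0.28, adjusted p = 0.0052). Cul3, the scaffold of the ligase that degrades WNK kinases, was lower than in DOT1L (-0.57 ± 0.11, adjusted p = 4.2e-04), and Klhl2, an adaptor of that ligase, was higher (0.77 ± 0.20, adjusted p = 0.0059). The median over the 13 other genes, Wnk1 left out, was -0.066 between MLLT10 and NT and 0.002 over all genes tested. Wnk2, a paralog, had no count in any library.

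Lpxn encodes leupaxin, an adaptor of the paxillin family at adhesion sites of blood cells. Lpxn lies on chromosome 19 from 12796193 to 12833807 on the plus strand. Its level was 82.8, 81.0 and 64.9 CPM in NT. The MLLT10 libraries had Lpxn at 15.4, 30.5 and 25.6 CPM with guide 1 and 18.4, 24.3 and 23.4 CPM with guide 2. In DOT1L it was 26.4, 19.2 and 11.4 CPM. The MLLT1 libraries ran from 61.0 to 82.0 CPM (median 68.5) and the MLLT6 libraries from 58.3 to 85.7 CPM (median 75.9).

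The libraries thus formed a low set, MLLT10 and DOT1L, and a high set, NT, MLLT1 and MLLT6, with no overlap between them. Lpxn was lower in the MLLT10 knockout than in MLLT1 (-1.63 ± 0.17, adjusted p = 4.5e-06, edgeR) and than in MLLT6 (-1.71 ± 0.17, adjusted p = 9.6e-06), which left it at 0.323 and 0.306 of their levels. Between MLLT10 and DOT1L the log2 difference was 0.30 (95% interval -0.17 to 0.77, adjusted p = 0.385). Lpxn is therefore not particular to the MLLT10 knockout among these groups: in DOT1L it fell by 2.04 ± 0.26 from NT (adjusted p = 2.5e-06). Among the knockouts that took no part in choosing the gene, Lpxn was higher in MLLT1 than in DOT1L (1.93 ± 0.23, adjusted p = 1.2e-06) and in MLLT6 than in DOT1L (2.01 ± 0.24, adjusted p = 5.3e-07).

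Zfp91, a zinc-finger gene, starts 66 bases from Lpxn on the opposite strand, so the Lpxn sequence printed here is the whole interval between the 2 genes. Zfp91 was 61.8 to 86.6 CPM in NT, 68.6 to 81.4 CPM in DOT1L and 48.0 to 78.5 CPM in MLLT10. Its log2 difference was 0.02 between DOT1L and NT (adjusted p = 0.969) and -0.29 between MLLT10 and NT (adjusted p = 0.569). It was lower in MLLT10 than in MLLT1 (-0.49, adjusted p = 0.0394). The authors' strand setting is not given in the sources used here, but no annotated gene overlaps Lpxn.

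Of 21 other tested genes of the paxillin family and focal adhesions, 0 passed between the MLLT10 knockout and NT, MLLT1 or MLLT6, while 16 passed against DOT1L (5 higher, 11 lower), where 23.5% of all genes passed and 12.6% were lower. Against DOT1L, the log2 difference was -1.78 ± 0.18 for the scaffold Nedd9 (adjusted p = 7.1e-08), -1.57 ± 0.18 for the LIM protein Zyx (adjusted p = 6.9e-07), -0.94 ± 0.12 for the kinase Lyn (adjusted p = 3.6e-06) and 1.74 ± 0.21 for the parvin Parvb (adjusted p = 1.3e-06). Pxn, the founding member of the family, was higher in DOT1L than in NT (0.95 ± 0.28, adjusted p = 0.0141), opposite to Lpxn, and was 0.30 ± 0.24 between MLLT10 and NT (adjusted p = 0.736). The median over the 21 other genes, Lpxn left out, was -0.002 between MLLT10 and NT and -0.467 between MLLT10 and DOT1L. Over all genes tested it was 0.002 and 0.011.

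Pan3 encodes the subunit that brings the PAN2 nuclease to the poly(A) tails of mRNAs. Pan3 lies on chromosome 5 from 147430161 to 147548502 on the plus strand, where the pseudogene Gm42883 overlaps it on the same strand. The Pan3 level was 248, 267 and 276 CPM in NT. The MLLT10 libraries had Pan3 at 101, 144 and 151 CPM with guide 1 and 104, 125 and 148 CPM with guide 2. In DOT1L it was 118, 85.7 and 90.0 CPM, the MLLT1 libraries ran from 113 to 189 CPM (median 167) and the MLLT6 libraries from 152 to 206 CPM (median 194).

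All 3 NT libraries were above the 21 knockout libraries, a pattern held by 0.18% of genes tested, though NT took part in choosing the gene. The means fell in the order NT (264 CPM), MLLT6 (188), MLLT1 (160), MLLT10 (129) and DOT1L (97.8). No step from MLLT10 to its neighbours in that order passed: the log2 difference was -0.31 ± 0.14 from MLLT1 (adjusted p = 0.316, edgeR) and 0.40 ± 0.17 from DOT1L (adjusted p = 0.1001). The difference of -0.55 ± 0.14 from MLLT6 did not pass either (adjusted p = 0.0634), but it did with DESeq2 (adjusted p = 0.0129), with no filter (adjusted p = 0.0117) without both libraries that stood apart (-0.61, adjusted p = 0.0257), and without MLLT6 guide 1 replicate 3 (-0.61, adjusted p = 0.0385), MLLT1 guide 1 replicate 1 (adjusted p = 0.0459) or MLLT1 guide 1 replicate 2 (adjusted p = 0.0305). Pan3 was higher in MLLT10 than in DOT1L with library totals alone as the scale (0.63, adjusted p = 0.0101), without DOT1L replicate 1 (0.56, adjusted p = 0.0497) and without MLLT10 guide 1 replicate 1 (0.48, adjusted p = 0.0422).

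Pan3 was also lower than NT in DOT1L (-1.43 ± 0.20, adjusted p = 8.8e-06) and in MLLT1 (-0.73 ± 0.16, adjusted p = 0.0148). In MLLT6 it was -0.49 ± 0.16 from NT (adjusted p = 0.699, unadjusted p = 0.00663). Outside the groups that chose it, Pan3 was higher than in DOT1L both in MLLT1 (0.71 ± 0.17, adjusted p = 0.0045) and in MLLT6 (0.94 ± 0.18, adjusted p = 2.1e-04). A lower Pan3 level was thus not confined to the MLLT10 knockout.

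Of 24 other tested genes of mRNA deadenylation, 0 passed between the MLLT10 knockout and NT, MLLT1 or MLLT6, and 4 passed against DOT1L, a share below the 23.5% of all genes that did. These were Tnrc6b (-1.20 ± 0.18, adjusted p = 2.1e-05) and Tnrc6c (-0.36 ± 0.12, adjusted p = 0.0257), GW182 proteins of miRNA silencing, Tob1 (-1.32 ± 0.45, adjusted p = 0.038), an antiproliferative adaptor, and the nuclease gene Parn (0.62 ± 0.19, adjusted p = 0.0202). The partner Pan2 was 45.8 to 94.5 CPM in NT and 56.8 to 73.5 CPM in MLLT10 (log2 difference -0.12, 95% interval -0.78 to 0.53). The median over the 24 other genes, Pan3 left out, was -0.10 between MLLT10 and NT.

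Ube4a encodes a U-box ubiquitin ligase that lengthens ubiquitin chains on substrates handed to the proteasome. Ube4a lies on chromosome 9 from 44923127 to 44965600 on the minus strand, where the pseudogene Gm19121 overlaps it on the plus strand. How the authors' counting treated reads of such overlaps is not given in the sources used here. Ube4a was the lowest of the 7 genes per length, at 0.564 CPM per kb of exon in NT, against 589 for Itm2b. In NT it was 6.59, 3.75 and 4.28 CPM, which rest on 16, 12 and 11 counts. With MLLT10 knocked out, Ube4a was 11.5, 12.7 and 11.7 CPM with guide 1 and 9.34, 13.9 and 16.0 CPM with guide 2. In DOT1L it was 10.4, 13.2 and 11.05 CPM, the MLLT1 libraries ran from 9.91 to 15.5 CPM (median 10.99) and the MLLT6 libraries from 8.67 to 12.9 CPM (median 11.03).

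The 3 NT libraries were below all 21 knockout libraries, and 0.0945% of genes tested show this. The NT and MLLT10 libraries took part in choosing the gene, so the choice favoured low NT values. The knockouts overlapped one another throughout. Between the MLLT10 knockout and the others the log2 difference was 0.11 for DOT1L (95% interval -0.33 to 0.55), 0.11 for MLLT1 (95% interval -0.24 to 0.46) and 0.18 for MLLT6 (95% interval -0.17 to 0.54), with adjusted p from 0.738 to 0.883. Ube4a was higher than NT in DOT1L (1.25 ± 0.28, adjusted p = 0.0016) and in MLLT1 (1.25 ± 0.25, adjusted p = 0.006). For MLLT6 the log2 difference was 1.18 ± 0.25 with an unadjusted p of 9.4e-05 and an adjusted p of 0.496. These comparisons share the same 3 NT libraries, and so few counts in them limit each value.

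Ube4b, the paralog, was 135 to 170 CPM in NT and 134 to 178 CPM in MLLT10 (log2 difference 0.03, 95% interval -0.20 to 0.27). Of 15 other tested U-box ligases and partners of the VCP segregase, 0 passed between the MLLT10 knockout and NT or MLLT1. Faf1, which recruits ubiquitinated proteins to VCP, was lower in MLLT10 than in MLLT6 (-0.56 ± 0.13, adjusted p = 0.0477) and higher than in DOT1L (0.86 ± 0.17, adjusted p = 6.3e-04). Ube2d3, an E2 enzyme, was lower than in DOT1L (-0.56 ± 0.12, adjusted p = 0.0015). Kmt2a, the gene whose human counterpart gives the N-terminal part of the fusion, lies 41.8 kb from Ube4a and did not differ between MLLT10 and NT (0.04, adjusted p = 0.983).

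Itm2b encodes BRI2, a membrane protein that is cut by furin and binds the amyloid precursor protein. Itm2b lies on chromosome 14 from 73362226 to 73385289 on the minus strand and no annotated gene overlaps it. It was the most abundant of the 7 genes per length. In NT it was 1408.0, 1647.4 and 1772.2 CPM, and in DOT1L it was 1543.5, 1570.5 and 1726.8 CPM. The MLLT10 libraries held Itm2b at 1080.0, 1094.4 and 1267.8 CPM with guide 1 and 1085.2, 1107.1 and 1172.2 CPM with guide 2. The MLLT1 libraries ran from 1429.2 to 1675.1 CPM and the MLLT6 libraries from 1297.5 to 1674.0 CPM.

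The 6 MLLT10 libraries were below all 18 others. Only 2 genes, Itm2b and Reep3, or 0.0189% of those tested, show this. The NT and MLLT10 libraries took part in choosing Itm2b, so the choice favoured part of this separation. The log2 difference was -0.51 ± 0.10 from DOT1L (adjusted p = 7.1e-04, edgeR), -0.51 ± 0.09 from MLLT1 (adjusted p = 9.7e-04) and -0.39 ± 0.09 from MLLT6 (adjusted p = 0.028), which are changes of -29.7%, -29.7% and -23.8%. DOT1L, MLLT1 and MLLT6 lay close to NT, at 0.004 (95% interval -0.25 to 0.26), 0.0034 (95% interval -0.21 to 0.22) and -0.11 (95% interval -0.33 to 0.10).

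The difference of Itm2b from MLLT6 was close to the threshold. It ended without any of MLLT10 guide 1 replicates 1 and 2, MLLT10 guide 2 replicates 1, 2 and 3, MLLT6 guide 1 replicate 2 or MLLT6 guide 2 replicates 1 and 3, with adjusted p from 0.0548 to 0.0893 and log2 differences from -0.41 to -0.36. It also ended with no filter (adjusted p = 0.145), with only the groups compared (adjusted p = 0.102) and, as did the difference from DOT1L (-0.28, adjusted p = 0.0624), with library totals alone (-0.37, adjusted p = 0.0647).

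Itm2c, a paralog, did not share this pattern. It was 245 to 291.5 CPM in NT, 150 to 215 CPM in MLLT10 and 80.01 to 113 CPM in DOT1L, and it was higher in MLLT10 than in DOT1L (0.84 ± 0.15, adjusted p = 2.5e-04). Of 12 other tested genes for BRI proteins and their processing, 0 passed between MLLT10 and NT, MLLT1 or MLLT6. Against DOT1L, Itm2c passed, and so did the sheddase gene Adam17 (0.82 ± 0.16, adjusted p = 3.8e-04). Itm2a had at most 0.7825 CPM in any library.

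Prom1 encodes prominin-1 (CD133), a cholesterol-binding protein of membrane protrusions and a surface marker of stem and progenitor cells. Prom1 lies on chromosome 5 from 43993620 to 44102032 on the minus strand, where the antisense gene Gm16401 overlaps it, and reads of the 2 cannot be told apart without strand. The transcript gene Gm42716 also overlaps Prom1, on the same strand. In NT Prom1 was 26.8, 7.51 and 9.72 CPM. With MLLT10 knocked out, Prom1 was 60.6, 39.3 and 43.1 CPM with guide 1 and 53.2, 38.3 and 46.5 CPM with guide 2. In DOT1L it was 172, 199 and 191 CPM, the MLLT1 libraries ran from 31.1 to 49.8 CPM (median 39.3) and the MLLT6 libraries from 14.6 to 28.3 CPM (median 21.9).

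MLLT10 lay between the other groups: its 6 libraries were below the 3 of DOT1L, above the 6 of MLLT6 and overlapped those of MLLT1. Prom1 was 4.0-fold lower in MLLT10 than in DOT1L (log2 difference -2.0 ± 0.24, adjusted p = 1.1e-06, edgeR). It was 2.16-fold higher than in MLLT6 (1.11 ± 0.22, adjusted p = 0.0139), a call that ended without MLLT6 guide 2 replicate 2 (adjusted p = 0.0593) or replicate 3 (adjusted p = 0.0546). From MLLT1 the difference was 0.25 (95% interval -0.19 to 0.69, adjusted p = 0.728).

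Mgl2 encodes a C-type lectin of macrophages and dendritic cells that binds galactose and N-acetylgalactosamine. Mgl2 lies on chromosome 11 from 70130329 to 70137550 on the plus strand and no annotated gene overlaps it. In NT it was 15.7, 7.19 and 8.17 CPM. The MLLT10 libraries had Mgl2 at 74.4, 33.2 and 31.4 CPM with guide 1 and 59.6, 45.4 and 34.8 CPM with guide 2. In DOT1L it was 139, 125 and 109 CPM, the MLLT1 libraries ran from 21.5 to 44.1 CPM (median 31.5) and the MLLT6 libraries from 7.91 to 16.96 CPM (median 12.2).

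As with Prom1, all 6 MLLT10 libraries were below DOT1L and above MLLT6, and they overlapped MLLT1. Mgl2 was 2.65-fold lower in MLLT10 than in DOT1L (-1.41 ± 0.26, adjusted p = 2.5e-04) and 3.96-fold higher than in MLLT6 (1.98 ± 0.25, adjusted p = 1.1e-04). From MLLT1 it differed by 0.59 (95% interval 0.12 to 1.06, adjusted p = 0.209), which passed with the replicate number as a block (0.54, adjusted p = 0.0255) and with no filter (0.60, adjusted p = 0.0196). Replicate 1 was the highest of its group for Mgl2 in 7 of 8 groups and for Prom1 in 6 of 8, NT and both MLLT10 guides among them, and the labels do not say what a replicate number stands for.

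Prom1 and Mgl2 were far higher in DOT1L than in NT, by 3.70 ± 0.34 (adjusted p = 2.1e-08) and 3.61 ± 0.37 (adjusted p = 1.0e-07), and were also higher in MLLT1, by 1.46 ± 0.30 and 1.60 ± 0.33 (adjusted p = 0.0087 for each). Without NT replicate 1, the highest of the NT libraries, Prom1 was at 4.43 in DOT1L and at 2.20 in MLLT1. Both calls in MLLT1 ended without NT replicate 2 (edgeR, adjusted p = 0.124 for Prom1 and 0.116 for Mgl2). They also ended without NT replicate 3 (adjusted p = 0.107 and 0.0851), and that of Prom1 with only the groups compared (adjusted p = 0.0998). In MLLT6 the log2 differences from NT were 0.59 (95% interval -0.04 to 1.22) and 0.21 (95% interval -0.50 to 0.92). The same order appeared between groups that took no part in choosing the genes. The log2 difference of Prom1 from DOT1L was -2.25 ± 0.24 in MLLT1 and -3.11 ± 0.25 in MLLT6, and that of Mgl2 was -2.001 ± 0.26 and -3.39 ± 0.28, each at an adjusted p of at most 3.7e-06. Between MLLT1 and MLLT6, Prom1 was higher in MLLT1 by 0.86 ± 0.22 (adjusted p = 0.0259) and Mgl2 by 1.39 ± 0.25 (adjusted p = 0.0013). The call for Prom1 ended without the 2 libraries that stood apart (adjusted p = 0.0571) and without any of MLLT1 guide 2 replicates 1 and 2, MLLT6 guide 1 replicate 2 or MLLT6 guide 2 replicates 2 and 3 (adjusted p from 0.0553 to 0.0885).

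Summed levels of markers of mature cells also differed between groups, but not all in the direction of Prom1 and Mgl2. Neutrophil markers were higher in every MLLT1 library than in any MLLT10 library, whereas Prom1 and Mgl2 overlapped between these knockouts. The summed level of 6 neutrophil markers was 253 to 357 CPM in NT, 690 to 974.7 CPM in MLLT10, 1690.5 to 2231.7 CPM in MLLT1, 235 to 654 CPM in MLLT6 and 89413 to 102540.0 CPM in DOT1L. The summed level of 7 macrophage markers went the other way, 171 to 273 CPM in NT, 119 to 171 CPM in MLLT10, 102 to 150 CPM in MLLT1, 187 to 225 CPM in MLLT6 and 46.1 to 65.8 CPM in DOT1L, with C1qa and C1qb at 0 throughout. Retnlg, 1 of the neutrophil markers, was at 0 in NT and MLLT6, Mertk in every group but DOT1L, and Mrc1 in NT, DOT1L and MLLT6. The summed level of 6 dendritic cell markers was 87.0 to 173 CPM in NT, 70.7 to 101 CPM in MLLT10 and 28.2 to 63.6 CPM in MLLT1. It was 57.2 to 151 CPM in MLLT6 and 9.95 to 18.9 CPM in DOT1L. Xcr1 was at 0 throughout, Cd209a in every group but MLLT1, Siglech in DOT1L, MLLT10 and MLLT6, and Zbtb46 in NT and DOT1L. These 6 include Flt3, also a gene of progenitors, which was lower in DOT1L than in NT (log2 difference -3.16). The part of these cell type markers in the levels of Prom1 and Mgl2 was not tested.

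Other genes for progenitor surface proteins did not follow Prom1. Of 8 tested, 0 passed between MLLT10 and NT, and 6 were higher and 0 lower in MLLT10 than in DOT1L, where Prom1 was lower and 23.5% of all genes passed in either direction. Among these were the sialomucin gene Cd34 (2.22 ± 0.26, adjusted p = 6.5e-07), the receptor kinase gene Flt3 (2.47 ± 0.33, adjusted p = 3.9e-06), Muc13 (1.76 ± 0.17, adjusted p = 5.1e-08) and Cd93 (1.504 ± 0.13, adjusted p = 4.4e-09). The median of the 8 genes, Prom1 left out, was 1.47 between MLLT10 and DOT1L and -0.29 between MLLT10 and NT. Prom2, a paralog, had at most 1.49 CPM in any library.

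Of 8 other tested C-type lectin genes, 0 passed between MLLT10 and NT, 7 passed against DOT1L (4 higher, 3 lower), 2 against MLLT1 and 1 against MLLT6, where 23.5%, 2.68% and 0.766% of all genes did. Clec4a2 was lower in MLLT10 than in DOT1L (-5.47 ± 0.28, adjusted p = 3.2e-13), as were Clec5a (-3.65 ± 0.32, adjusted p = 7.8e-09) and Clec12a (-1.33 ± 0.19, adjusted p = 8.4e-06), receptors of myeloid cells, while Clec4d was higher (1.41 ± 0.17, adjusted p = 1.1e-06). Clec10a, the closest relative of Mgl2, lies 18.6 kb away and went the other way in DOT1L: it was 15.9 to 23.5 CPM in NT and 2.49 to 4.81 CPM in DOT1L, a log2 difference of -2.24 ± 0.42 (adjusted p = 3.1e-04). In MLLT10 it was 10.3 to 21.8 CPM (log2 difference from NT -0.13, 95% interval -0.78 to 0.53). How the authors' counting treated reads shared by the 2 similar genes is not given in the sources used here.

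**Figure D2:**
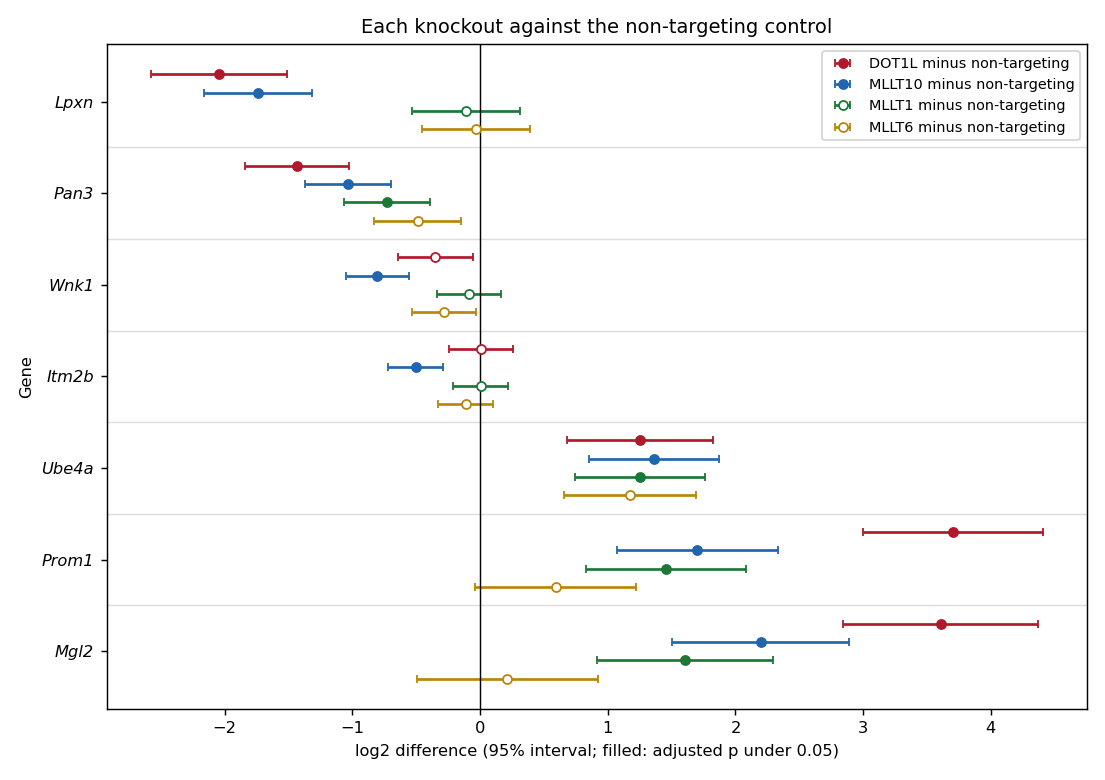
Log2 difference of each gene between each knockout and the non-targeting control, with 95% intervals; filled points have an adjusted p under 0.05. The MLLT10 points chose the genes and are no test. Wnk1 and Itm2b are filled for MLLT10 alone, Lpxn for MLLT10 and DOT1L, and Pan3, Ube4a, Prom1 and Mgl2 for DOT1L, MLLT10 and MLLT1.

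Counted over the 7 genes, 5 differed from NT in the DOT1L knockout (3 higher, 2 lower), where 21.8% of genes tested did (11.2% higher, 10.7% lower). In the MLLT1 knockout 4 did (3 higher, 1 lower), against 2.58% (0.974% higher, 1.61% lower). In the MLLT6 knockout 0 of the 7 passed with edgeR, and so did 0 of the 10578 genes (0%). At an unadjusted p under 0.05 it was 3 of the 7, Pan3, Wnk1 and Ube4a, against 6.87% of genes, and DESeq2 called 0 of the 7. These comparisons and the one that chose the genes share the NT libraries. The 4 calls in MLLT1 rest on them closely: none of the 4 passed without NT replicate 2 or without NT replicate 3, when the calls over all genes also went from 273 to 83 and to 74.

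Between knockouts, where NT takes no part, 4 of the 7 genes differed between MLLT10 and DOT1L, all lower in MLLT10 (Wnk1, Itm2b, Prom1 and Mgl2), where 23.5% of genes tested passed and 12.6% were lower. From MLLT1, 3 differed (Lpxn, Wnk1 and Itm2b, all lower), against 2.68%, with 1.18% lower. From MLLT6, 5 differed (Lpxn, Wnk1 and Itm2b lower, Prom1 and Mgl2 higher), against 0.766%, with 0.35% lower and 0.416% higher. The median size of the log2 difference over the 7 was 0.45, 0.51 and 0.55 in these 3 comparisons, and 0.32, 0.16 and 0.16 over all genes tested. The MLLT10 libraries took part in choosing the genes, so these counts are not independent of the choice. Against the mean of the 3 other knockouts, 3 genes passed, all lower, where 5.38% did and 2.62% were lower: Lpxn (-1.01 ± 0.16, adjusted p = 1.7e-04), Wnk1 (-0.56 ± 0.09, adjusted p = 1.8e-04) and Itm2b (-0.47 ± 0.07, adjusted p = 2.5e-04).

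**Figure D3:**
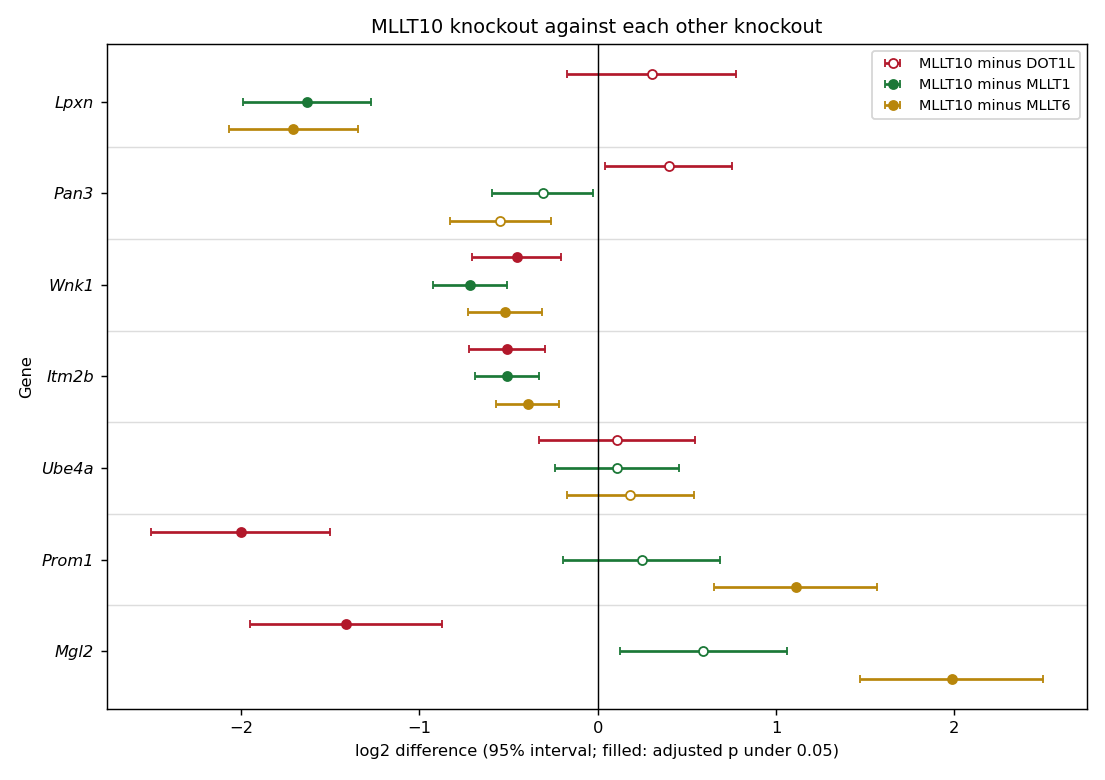
Log2 difference of each gene between the MLLT10 knockout and each other knockout, with 95% intervals; filled points have an adjusted p under 0.05. Wnk1 and Itm2b are the genes with 3 filled points on 1 side of 0, Prom1 and Mgl2 lie on opposite sides for DOT1L and MLLT6, and no point of Pan3 or Ube4a is filled.

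The strictest reading of particular to MLLT10, a difference in 1 direction from each of the 3 other knockouts, was met by 2 of the 7 genes, Wnk1 and Itm2b, both lower. Over all genes tested 4 met it, or 0.0378% (0.0284% lower): these 2, Reep3, an endoplasmic reticulum protein gene (lower), and Ccl9 (higher). That count over all genes was 2 to 5 when single libraries were left out, 16 with no filter, 2 with only the groups compared and 1 with library totals alone. The MLLT10 libraries took part in choosing the 7 genes, so the count over the 7 is not independent of the choice. This count over the 7 genes was 1 or 2 when single libraries were left out. It was 0 with no filter on low counts, 0 when only the groups compared were fitted and 0 with library totals alone, and 2 with DESeq2, with its size factors, with the replicate block and without the 2 libraries that stood apart.

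Outside MLLT10 and NT, comparisons added after the values were seen, 4 of the 7 genes differed between MLLT1 and DOT1L (Lpxn, Pan3, Prom1 and Mgl2), where 19.6% of genes tested did, and the same 4 between MLLT6 and DOT1L, where 29.3% did. Between MLLT1 and MLLT6 it was 2, Prom1 and Mgl2, both higher in MLLT1, against 4.46%, with 1.78% higher. Wnk1, Itm2b and Ube4a did not pass in any of these 3, with log2 differences from -0.12 to 0.26, except that Wnk1 passed between MLLT1 and DOT1L with library totals alone as the scale (0.50, adjusted p = 0.00352).

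**Figure D4:**
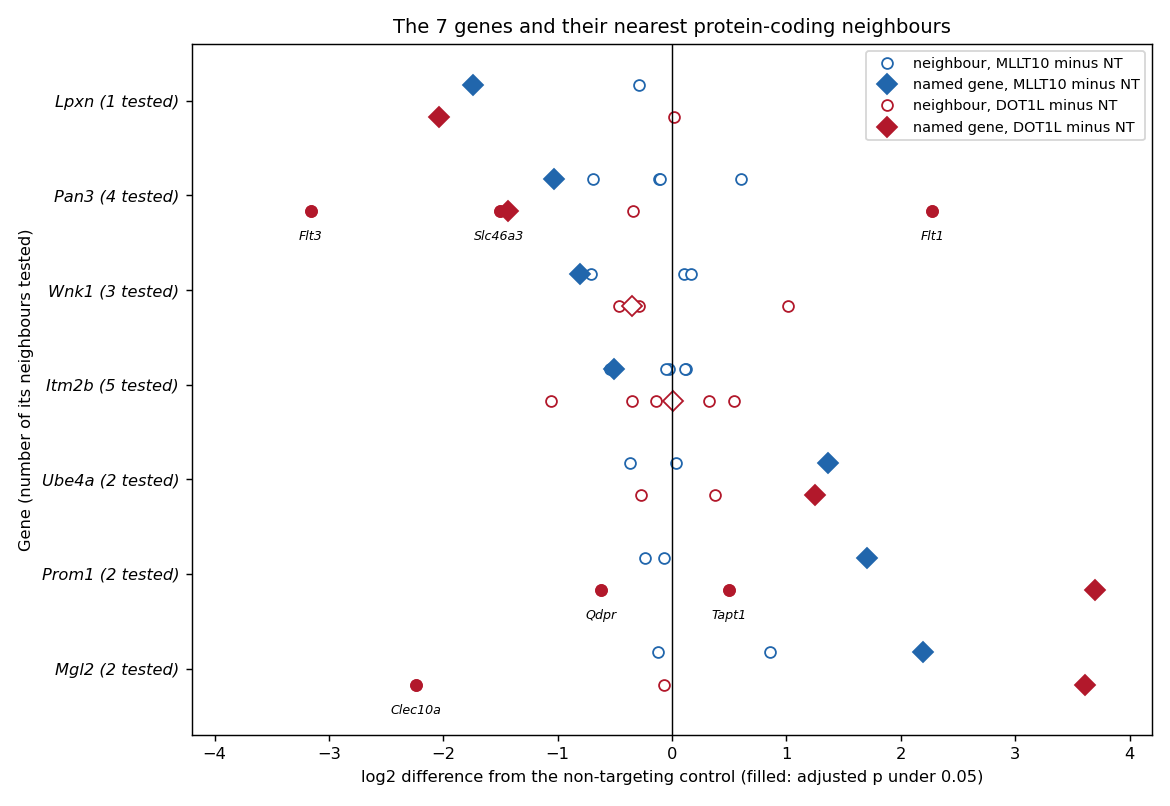
Log2 difference from the non-targeting control of each of the 7 genes (diamonds) and of its tested protein-coding neighbours (circles), in MLLT10 and in DOT1L; filled symbols have an adjusted p under 0.05. No neighbour is filled for MLLT10, and 6 neighbours are filled for DOT1L, Flt3 and Flt1 beside Pan3 among them.

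The 3 nearest protein-coding genes on each side of the 7 are 42 genes, of which 19 could be tested. Of these, 0 passed between MLLT10 and NT, where 0.473% of all genes did. Between MLLT10 and DOT1L 7 passed (23.5% of all genes), from MLLT1 1 (2.68%) and from MLLT6 1 (0.766%). Pan3 lies between Flt3, 29.7 kb away, and the receptor gene Flt1, 13.1 kb away, and the 3 genes went different ways in DOT1L, where Flt3 was lower than in NT (-3.16, adjusted p = 4.8e-07), Flt1 higher (2.27, adjusted p = 4.2e-09) and Pan3 lower. Flt1 was also higher in MLLT10 than in MLLT6 (0.59, adjusted p = 0.0331). Tapt1, 73.1 kb from Prom1, was higher in DOT1L than in NT by 0.50 (adjusted p = 0.0404).

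Across the 24 libraries, the genes most like each of the 7 were named by Pearson's r of log2(CPM + 1), a description in which libraries of a group are not independent. For Lpxn these were Jmjd1c (r = 0.896) and Arhgap21 (0.884), for Pan3 Itm2c (0.864) and Pcnx (0.841), and for Wnk1 Skap2 (0.739) and Rock1 (0.718). For Itm2b they were Smc4 (0.728) and Wnk1 (0.716), and for Ube4a Faap24 (0.763) and Ppid (0.751). For Prom1 they were Wfdc21 (0.944) and Cmpk2 (0.937), and for Mgl2 Ctse (0.936) and Prom1 (0.919). Among the 7, the pairs with r over 0.7 were Prom1 with Mgl2, Lpxn with Pan3 (0.781), Lpxn with Wnk1 (0.717) and Itm2b with Wnk1. The pairs with r under -0.7 were Pan3 with Mgl2 (-0.843), Pan3 with Prom1 (-0.833), Lpxn with Mgl2 (-0.794) and Lpxn with Prom1 (-0.714).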

How the data were processed

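The deposited file holds raw counts per Ensembl gene identifier. Reads were processed with bcl2fastq, HISAT2 and HTSeq on mm10, with DESeq2 also listed, per the submitters' processing notes, and no source used here gives versions, annotation or strand setting. Identifiers were paired with symbols through GENCODE M21 (42462 of 43629 matched). Genes were filtered with edgeR 4.0.16 (filterByExpr, 10578 kept), scaled by TMM and fitted with the quasi-likelihood test in 1 model over the 8 groups, in R 4.3.3, with Benjamini-Hochberg adjustment over all genes. The threshold was an adjusted p of 0.05. Knockout effects average both guides, and the SE is the log2 difference over the square root of F. CPM used TMM-scaled totals. The fit was tested on simulated data. Promoters came from RefSeq for GRCm38.p6.

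The members and gene lists were chosen with earlier results of these data known. The comparisons among DOT1L, MLLT1 and MLLT6, and scaling by library totals alone, were chosen after seeing the data. The text names, from each list, up to 4 genes that passed by smallest adjusted p, close paralogs, the nearest neighbours, and the 2 genes most like each of the 7. Alternatives were no filter, DESeq2 1.42.0 size factors, the DESeq2 test, a replicate block, only the groups compared, and leaving out each library or the 2 that stood apart. Replicate pairs differed by more than counting noise, with a chi-square per gene of 4.77 to 34.3.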

Additional observations from a re-analysis of the deposited data

Results flagged for a closer look

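Ube4a was 15.5 CPM in MLLT1 guide 1 replicate 1, one of the 2 libraries that stood apart, and 9.91 to 11.5 CPM in the other 5 MLLT1 libraries. The gap to the nearest library was 0.709 of the range of the group. Among 21 groups of 6 examined this was the one set apart, where chance gives about 1 in 20. The cause was not tested.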

How the results depend on the processing

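The count of genes that differed from each of the 3 other knockouts, 2, was 0 with no filter, 0 with only the groups compared and 0 with library totals alone, and 1 to 2 without single libraries. The count against MLLT6, 5, was 3 with only the groups compared and 3 to 6 without single libraries. The count for MLLT1 against NT, 4, was 1 with only the groups compared and 0 to 4 without single libraries. The cause was not tested.

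Signs changed only for differences that no setting called. Itm2b in DOT1L against NT was -0.006 with no filter, -0.003 with DESeq2 size factors, -0.002 with the DESeq2 test, -0.046 with only the groups compared, -0.244 with library totals alone and -0.101 to 0.075 without single libraries. In MLLT1 against NT it was -0.0 with DESeq2 size factors, -0.0 with the DESeq2 test, -0.005 with only the groups compared, -0.005 with totals alone and -0.088 to 0.088 without single libraries. In MLLT1 against DOT1L it was, in the same order from no filter, 0.019, 0.002, 0.002, 0.026 and 0.239, with 0.028 without the 2 libraries that stood apart and -0.02 to 0.051 without single libraries. Ube4a there was 0.018, 0.002, 0.003, 0.025 and 0.236, and -0.074 to 0.097. With totals alone, MLLT6 against DOT1L was 0.091 for Itm2b and 0.128 for Ube4a (-0.126 to 0.021 without single libraries). Without single libraries, Ube4a in MLLT1 against MLLT6 was -0.007 to 0.129, and in MLLT6 against NT Lpxn was -0.129 to 0.034 and Mgl2 -0.01 to 0.617. Guide 1 against guide 2 of MLLT10 was -0.127 to 0.362 for Lpxn, -0.048 to 0.234 for Pan3, -0.002 to 0.273 for Wnk1, -0.038 to 0.074 for Itm2b, -0.31 to 0.048 for Ube4a, -0.162 to 0.182 for Prom1 and -0.539 to 0.21 for Mgl2 (0.001 with no filter).

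Samples share a replicate number, and 6 of 28 pairs of groups had every correlation of same-numbered libraries over 0.1. In a fit with a replicate block the 7 genes gave 4 calls against DOT1L, 4 against MLLT1, 5 against MLLT6 and 3 against the 3 at once, and 5, 4 and 0 for DOT1L, MLLT1 and MLLT6 against NT. Mgl2 against MLLT1 was the 1 call the block changed, and Itm2b and Ube4a in MLLT1 against DOT1L were 0.0 and 0.001. Library totals alone moved the median of all genes by 0.227 between MLLT10 and DOT1L, where 2342 genes were then higher and 833 lower, against 1153 and 1333 with TMM. DOT1L against NT moved by -0.244, from 1181 higher and 1128 lower to 776 and 2096. Ube4a rests on 11 to 16 counts per NT library, which limits its precision.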
